A study of Mus musculus with 4 samples.

Results

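Hey1, Heyl and Notch3 are 3 genes of the Notch pathway whose deposited values were lower in meningeal lymphatic endothelial cells from mice given VEGF-C than from control mice. They were chosen by name, for that difference, from the 9114 genes of the table. All 3 had a row, and all 3 passed the filter on low values (a mean of at least 10 normalised counts over the 4 libraries), as did 9063 genes in all. Because the difference between the groups chose them, it is described below without a test, and no test of any other measure rests on it.

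The mice were aged C57BL/6J males, 20 to 24 months old, injected through the cisterna magna with an adeno-associated virus (5 µL) 4 weeks before RNA was sequenced from their meningeal cells. The treated group received AAV1-CMV-mVEGF-C, carrying mouse VEGF-C, the growth factor of lymphatic vessels, and the control group received AAV1-CMV-eGFP, carrying a fluorescent protein. The CMV promoter driving both transgenes is active in many cell types, so VEGF-C was not confined by it to the lymphatic vessels. Cells were sorted as live single cells without CD45 and with CD31 and podoplanin, and each of the 2 libraries of a group came from 10 pooled mice, so that 4 libraries were compared. Recovered depth, summed over the 9114 genes of the table only, lay between 25610683 and 28632461 reads. The transcripts of lymphatic endothelium stood high in the table: Flt4, the VEGF-C receptor, ranked 18, Lyve1 ranked 20 and Prox1 ranked 31 by mean normalised count, while the sort marker Pdpn ranked 1399. Vegfc, the delivered gene, was not analysed here, so the labels could not be checked against it.

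Notch receptors are cell surface proteins that are cut when a ligand on a neighbouring cell pulls on them. The released intracellular domain enters the nucleus, joins the DNA-binding protein RBPJ and a Mastermind coactivator, and turns on target genes, among them the Hes and Hey families of transcriptional repressors. Notch3 is best known as the receptor of mural cells, the smooth muscle cells and pericytes around blood vessels, in which Heyl is also abundant. Hey1 is a Notch target of arterial endothelium as well. In lymphatic endothelium, Notch1 and its ligand Dll4 are known to act in sprouting and in valve formation.

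Hey1 lies on chromosome 3 from 8663359 to 8667256 on the minus strand, and Heyl on chromosome 4 from 123233556 to 123249875 on the plus strand. Notch3 lies on chromosome 17 from 32120820 to 32166852 on the minus strand. All coordinates are 1-based, from GENCODE vM21 on GRCm38 (mm10), and all 3 genes are protein-coding. No other annotated gene overlaps Hey1 or Heyl, and none of their 3289 and 5081 stretches of 31 bases occurs in a transcript of another gene. Their reads could therefore not be split between Hey1, Heyl or another annotated transcript by stretches of that length. Notch3 overlaps the antisense gene Gm17276, and 533 of its 8086 stretches (6.59%) are shared with other genes, 430 of them with Gm17276. The strand setting of the counting is not given in the sources used here, so reads of Notch3 and Gm17276 cannot be told apart over that stretch.

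The promoter of Notch3 is shown as the control region of the receptor gene, from RefSeq (GRCm38.p6); those of Hey1 and Heyl are not shown. It comprises the 250 bases before the RefSeq start of the gene, at chr17:32166891-32167140 on the minus strand, with capitals marking each GGGCGG on either strand, the GC box bound by Sp1-type factors.
Notch3: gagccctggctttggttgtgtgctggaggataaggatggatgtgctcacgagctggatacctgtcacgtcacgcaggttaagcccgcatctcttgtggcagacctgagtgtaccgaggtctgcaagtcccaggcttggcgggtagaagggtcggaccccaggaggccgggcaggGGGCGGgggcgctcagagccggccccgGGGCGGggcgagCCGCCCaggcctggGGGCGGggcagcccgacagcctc
GGGCGG occurred at 4 places, against at least 1 place in 32.7% of 32851 windows of 250 bases from the same table. The core letters of the RBPJ site, TGGGAA, had no match on either strand (21.6% of windows held one), nor did CACGTG (6.02%) or CACGCG (7.62%), the letters that Hey proteins are known to bind, or the TATA letters TATAAA (12.4%). All motifs were searched on both strands, and the 4 matches do not overlap one another. G and C made up 68.8% of the window, against a median of 52.4% over all windows.

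Hey1, a repressor that acts downstream of Notch, was at 182 normalised counts in eGFP 1, 357 in eGFP 2, 5.34 in mVEGF-C 1 and 17.7 in mVEGF-C 2. A normalised count is a read count divided by the size factor of its library. Both control libraries lay above both mVEGF-C libraries, and the lowest control value was 10.3 times the highest treated value. The mVEGF-C values rested on 5 and 19 reads, with exact 95% Poisson intervals of 1.73 to 12.5 and 10.6 to 27.6 normalised counts, which cover counting error only. The group means were 269 ± 124 in eGFP and 11.5 ± 8.71 in mVEGF-C libraries (SD, n = 2 each), and the log2 difference was -4.56 (SE 1.31). In these bulk libraries, fewer cells carrying a transcript and less of it per cell cannot be told apart.

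Heyl, the Hey-family relative of Hey1, stood at 176 in eGFP 1, 454 in eGFP 2, 1.07 in mVEGF-C 1 and 33.4 in mVEGF-C 2. The groups did not overlap here either, but the mVEGF-C libraries lay far apart: mVEGF-C 1 held 1 read of Heyl and mVEGF-C 2 held 36. The ratio of eGFP 1 to mVEGF-C 1 was 165, with an exact 95% counting interval of 29.3 to 6555. Means were 315 ± 197 and 17.3 ± 22.9 normalised counts (SD, n = 2 each), a log2 difference of -5.07 (SE 1.31). Without mVEGF-C 1 this difference was -3.04, and without mVEGF-C 2 it was -7.10.

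Notch3, the receptor, was at 799 in eGFP 1, 2179 in eGFP 2, 489 in mVEGF-C 1 and 79.0 in mVEGF-C 2. Again both control libraries were the higher, but the nearest values of the groups, eGFP 1 and mVEGF-C 1, differed only 1.63-fold, while the libraries within a group differed 2.73-fold in eGFP and 6.20-fold in mVEGF-C. Means were 1489 ± 976 and 284 ± 290 (SD, n = 2 each), a log2 difference of -2.74 (SE 1.17). The difference was -1.43 without mVEGF-C 2 and -4.05 without mVEGF-C 1. The SEs of all 3 genes come from the spread expected at their expression level across the table, since the fit gave a gene's own replicates no weight.

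**Figure D1:**
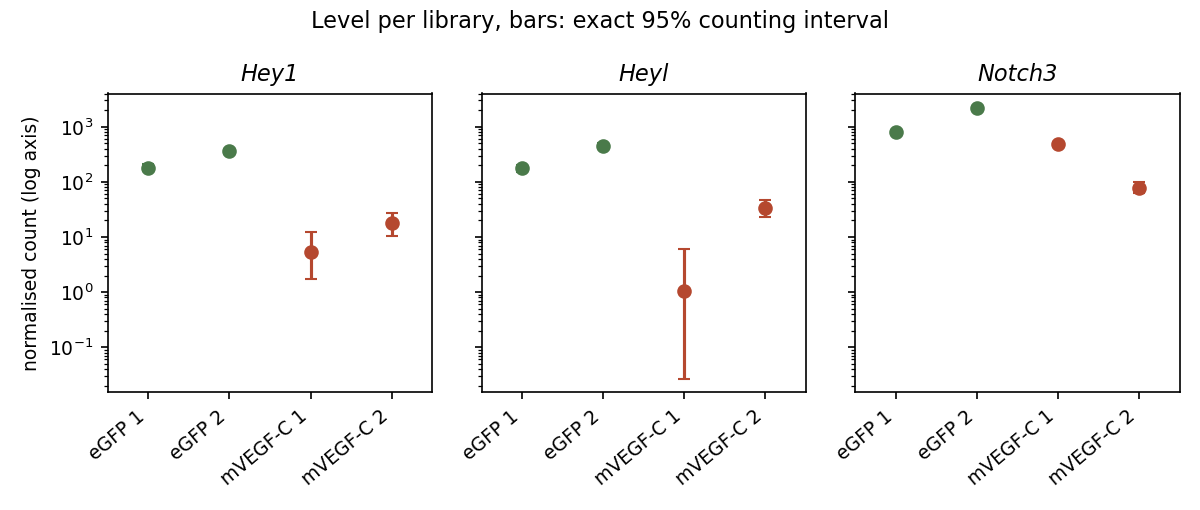
Normalised counts of Hey1, Heyl and Notch3 in each of the 4 libraries on a log axis, green for eGFP and red for mVEGF-C, with exact 95% Poisson intervals of the reads as bars. For each gene both red points lie below both green points, mVEGF-C 1 is the lowest library for Hey1 and Heyl, and mVEGF-C 2 is the lowest for Notch3.

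For all 3 genes the groups did not overlap, with mVEGF-C the lower. The same held for 19.8% of the 9063 genes, and since the genes were chosen on this contrast nothing is read from their count. Ordered from the lowest, the log2 difference of Heyl ranked 59, that of Hey1 88 and that of Notch3 397 among the 9063 genes.

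The table held only genes whose replicates lay within a limit, which bears on Heyl most. On the scale of log2(reads + 1), no gene of the table had mVEGF-C libraries more than 4.24 apart or eGFP libraries more than 2.83 apart. Heyl stood at 4.21 in the mVEGF-C pair, just inside that limit, Notch3 at 2.42 and Hey1 at 1.74. On the log2(normalised count + 1) scale, 0.662% of genes had a gap between the mVEGF-C libraries as wide as that of Heyl (4.06), 14.4% as wide as that of Notch3 (2.62) and 35.3% as wide as that of Hey1 (1.56).

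**Figure D2:**
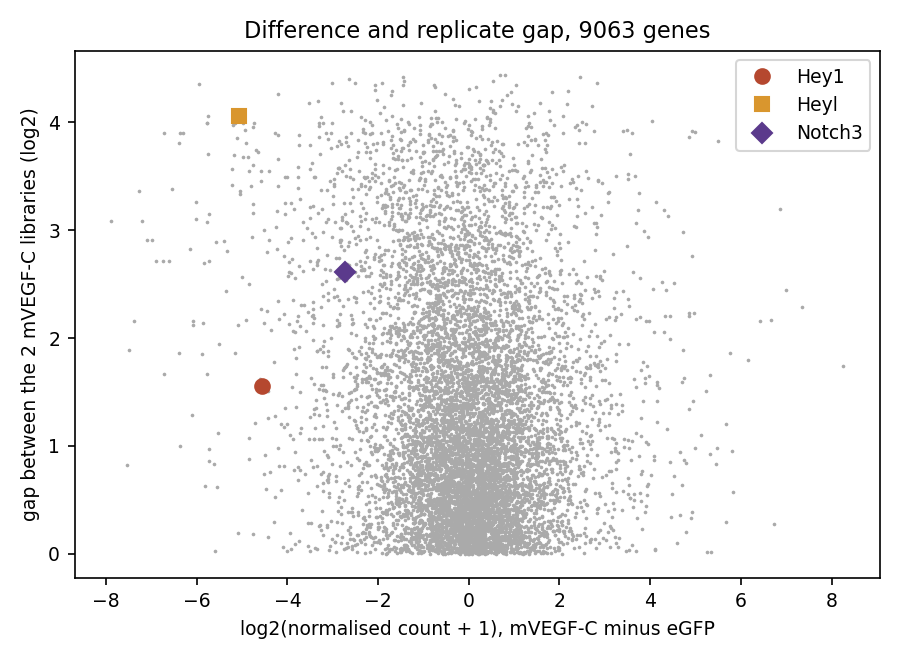
Each grey point is a gene of the 9063, placed by its log2 difference between the groups (x) and by the gap between its 2 mVEGF-C libraries (y), both on the log2(normalised count + 1) scale. Heyl sits near the upper edge of the cloud at a gap of 4.06, Hey1 low at 1.56 and Notch3 between them at 2.62.

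By library order, and by the distance given below, Hey1 and Heyl were more alike than either was like Notch3. Both took the library order mVEGF-C 1, mVEGF-C 2, eGFP 1, eGFP 2 from lowest to highest, an order shared by 6.87% of the genes. Notch3 differed in the treated pair, with mVEGF-C 2 the lowest, an order shared by 5.20%. In eGFP 1 and eGFP 2 the ratio of Heyl to Hey1 was 0.970 and 1.27, in mVEGF-C 2 it was 1.89, and in mVEGF-C 1 it was 0.200, from 1 read against 5. The ratio of Notch3 to Hey1 was 4.39 in eGFP 1, 6.10 in eGFP 2 and 4.47 in mVEGF-C 2, but 91.6 in mVEGF-C 1. The ratio of Notch3 to Heyl was 4.53 in eGFP 1 and 4.80 in eGFP 2, steadier between these libraries than the other ratios. It was 2.36 in mVEGF-C 2 and 458 in mVEGF-C 1. Notch3 thus stood apart from Hey1 and Heyl mainly in mVEGF-C 1, where these had 5 reads and 1 read.

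Likeness was measured as the root mean square distance between 2 genes' log2(normalised count + 1) values over the 4 libraries, each gene centred on its own mean, and is given as a description because all genes share these libraries. Hey1 and Heyl lay 0.93 apart, and Heyl was the 130th nearest of 9062 genes to Hey1, while Hey1 was the 53rd nearest to Heyl. Notch3 lay 1.74 from Hey1 and 2.63 from Heyl. It was the 1121st nearest gene to Hey1 and the 2354th nearest to Heyl. Counted from Notch3, Hey1 ranked 3527 and Heyl 8132 of 9062 genes, so 89.7% of genes lay as near to Notch3 as Heyl or nearer. The distance takes in the size of a change as well as its shape. Genes that hardly changed can thus lie nearer to Notch3 than Hey1 or Heyl, and these ranks do not show unlike shapes.

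The genes nearest to the mean profile of the 3 were Pde1a, a cyclic nucleotide phosphodiesterase, at a distance of 0.26, Fam180a at 0.27, the kinase gene Stk17b at 0.28, the centriole gene Poc5 at 0.28 and the kinase gene Dstyk at 0.30. The next were Gm22355, the MHC class I gene H2-T22, the ribosomal S6 kinase gene Rps6ka2, Gpr149 and Armc6, at 0.32 to 0.36. Reads of H2-T22 can be shared with its close relatives. Pde1a showed the shape of this group, with 681 and 1718 normalised counts in eGFP 1 and 2 and 49.1 and 60.4 in mVEGF-C 1 and 2. Nearest to Hey1 alone were Armc6 (0.06), H2-T22 (0.15) and Gm12002 (0.41), and nearest to Heyl alone were Gm16091 (0.06), the histone gene Hist2h3b (0.18) and the thioesterase gene Acot13 (0.22). Nearest to Notch3 alone were the potassium channel gene Kcnj1 (0.06), Sgf29 (0.10) and the splicing factor gene Srsf4 (0.12).

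Per length, the receptors Notch1 and Notch2 exceeded Notch3 in every library. Divided by the length of the longest coding transcript (8016 bases for Notch3, 9488 for Notch1, 10500.0 for Notch2), Notch3 stood at 99.6, 272, 61.0 and 9.85 normalised counts per kilobase in eGFP 1, eGFP 2, mVEGF-C 1 and mVEGF-C 2. Notch1 stood at 1193, 1091, 1874 and 1827 per kilobase, and Notch2 at 1352, 587, 1907 and 1223. Notch3 made up 3.77% and 13.9% of the 3 receptors' sum per kilobase in eGFP 1 and eGFP 2, and 1.59% and 0.322% in mVEGF-C 1 and mVEGF-C 2. The targets were ordered likewise: Hes1, a Notch target that other pathways also drive, was at 768 to 1316 per kilobase over the 4 libraries, against 2.20 to 147 for Hey1 and 0.235 to 100.1 for Heyl.

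Unlike Notch3, the other receptors and the ligand were not lower in mVEGF-C libraries, and none of these differences was called. Notch1 was at 11321 and 10354 normalised counts in eGFP 1 and 2 and at 17780 and 17338 in mVEGF-C 1 and 2, so that mVEGF-C was the higher without overlap (log2 difference 0.70, SE 0.48, limma adjusted p = 0.643). Notch2 had overlapping groups and a log2 difference of 0.78 (SE 0.50, limma adjusted p = 0.611). Dll4, the ligand that pairs with Notch1 in endothelium, was at 1385 and 1923 in the eGFP libraries against 5169 and 1957 in the mVEGF-C libraries (0.96, SE 0.90, limma adjusted p = 0.792). The ligands Dll1, Jag1 and Jag2 and the receptor Notch4 were not analysed here.

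The other 2 target genes tested, Hes1 and Hes7, overlapped between the groups. Hes1 was at 1392 and 1751 in eGFP and 1128 and 1932 in mVEGF-C libraries, with a log2 difference of -0.08 and a 95% interval of -2.02 to 1.86 (limma, adjusted p = 0.995). Hes7, a target best known from the segmentation clock, was low and variable, with 188 and 66.3 against 63.0 and 442 (0.58, interval -1.93 to 3.08, limma adjusted p = 0.940). These intervals are wide and leave room for sizeable differences in either direction.

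Of 61 Notch pathway genes other than Hey1, Heyl and Notch3, 38 were tested and none was called at an adjusted p under 0.05 in limma, against 2.14% of all genes (0.828% higher and 1.31% lower). At an unadjusted p under 0.05 there were 3 higher (Mfng, Tle4 and Itch) and 2 lower (Dtx4 and Crebbp), against 11.8% of all genes. On whole reads edgeR called none of the 38, against 67 higher and 79 lower of all 9063 genes. DESeq2 called 2 higher, Mfng and Tle4, and 1 lower, Dtx4, against 289 higher and 329 lower of all 9063. Nothing is read from these counts. Of the 38 genes, 23 had log2 differences above 0 and 15 below, with a median of 0.36 against -0.02 over all genes tested. Groups did not overlap for 8 lower (21.1%) and 13 higher (34.2%), against 19.8% and 19.4% of all genes (39.2% in either direction).

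**Figure D3:**
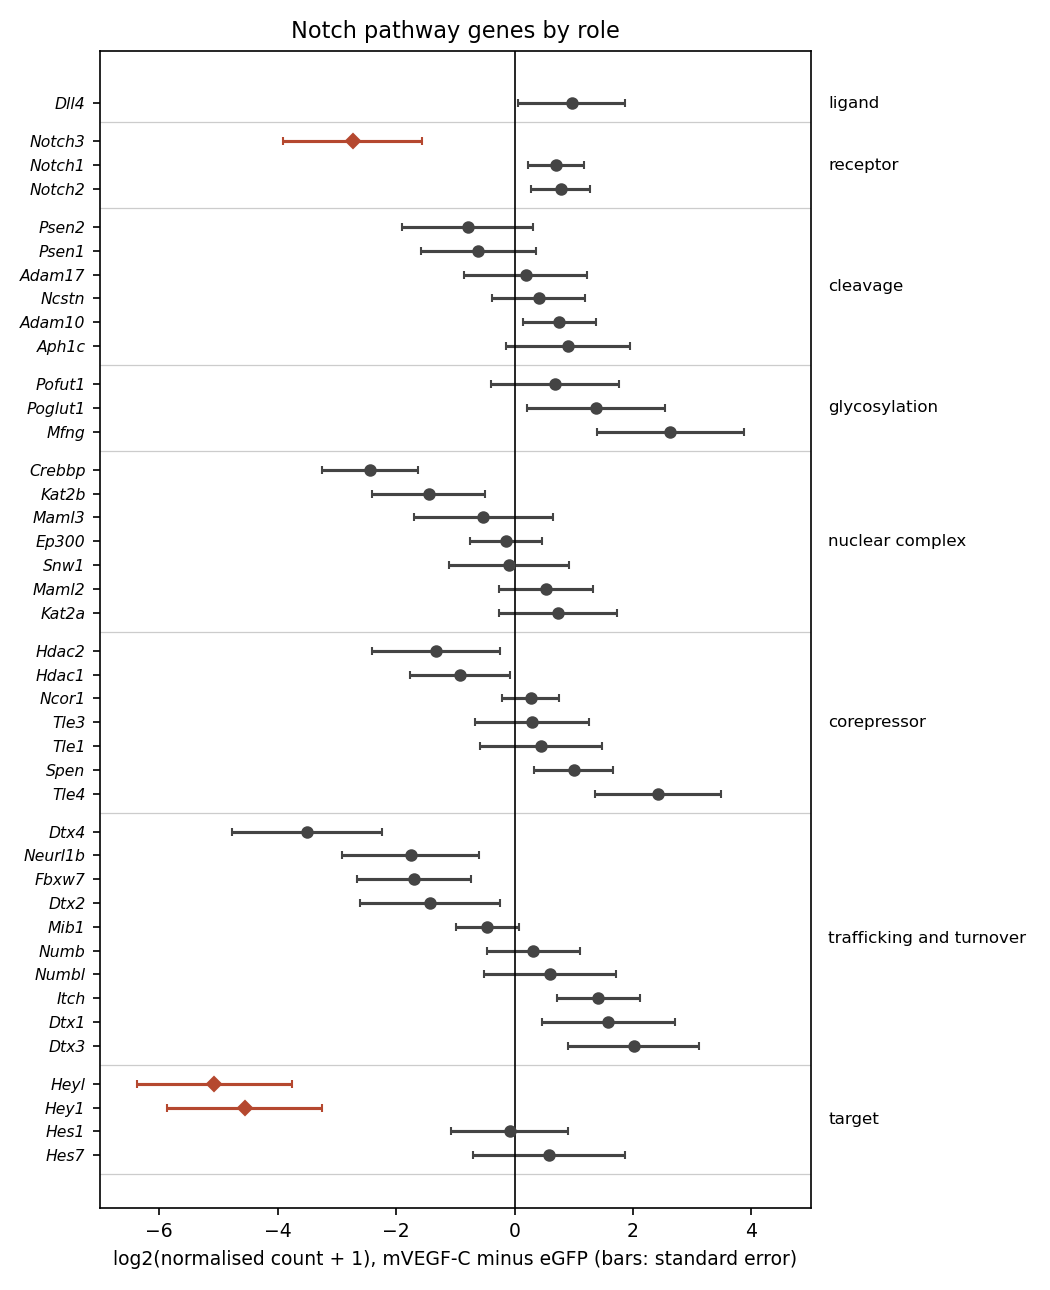
Log2 difference, mVEGF-C minus eGFP on the log2(normalised count + 1) scale, with its standard error, for the 41 Notch pathway genes tested, grouped by role; red diamonds are Hey1, Heyl and Notch3 and grey circles the other 38. The members lie at -4.56, -5.07 and -2.74, and the others spread on both sides of 0, from Dtx4 at -3.50 to Mfng at 2.63.

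The gene that came nearest to the profile of Hey1, Heyl and Notch3 among these 38 was Dtx4, an E3 ubiquitin ligase of the Deltex family that acts on Notch receptors. It was at 327 and 1001 normalised counts in eGFP 1 and 2 and at 49.1 and 50.2 in mVEGF-C 1 and 2, with a log2 difference of -3.50 (SE 1.27, limma adjusted p = 0.136). Its distance of 0.48 from their mean profile made it the 17th nearest of 9060 genes. The other Deltex genes did not share this profile: Dtx1 stood at 1.58, Dtx2 at -1.43 and Dtx3 at 2.01 on the log2 scale, and none was called by limma (adjusted p of 0.490 to 0.740). Neurl1b, which promotes uptake of Notch ligands, was lower without overlap (-1.76), as was Fbxw7 (-1.70), which marks the Notch intracellular domain for breakdown, whereas Itch, another ligase, was higher (1.41). None of these 3 was called by limma (adjusted p of 0.406 to 0.622). The order of libraries seen for Hey1 and Heyl was taken by 5 of the 38 genes (13.2%, against 6.87% of all genes), namely Dtx4, Neurl1b, Kat2b, Maml3 and Hdac1. That of Notch3 was taken by Fbxw7 alone (2.63%, against 5.20%).

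No gene that cuts or glycosylates the receptor was called by limma. Of 6 cleavage genes, Aph1c was the highest (0.90) and Psen2, a catalytic subunit of gamma-secretase, the lowest (-0.79). All 3 glycosyltransferase genes were higher without overlap, which held for 19.4% of all genes, with Mfng, a Fringe enzyme, at 104 and 91.9 in eGFP and 423 and 874 in mVEGF-C libraries (2.63, SE 1.24, limma adjusted p = 0.350), Poglut1 at 1.37 and Pofut1 at 0.69. edgeR called none of these 9 genes, and DESeq2 called Mfng higher, as it did 289 of all 9063 genes.

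Of the nuclear partners of the Notch intracellular domain, Crebbp, a histone acetyltransferase, was lower at 9655 and 6260 in eGFP 1 and 2 against 391 and 5193 in mVEGF-C 1 and 2 (-2.45, SE 0.81, limma adjusted p = 0.0818). The mVEGF-C libraries lay far apart, and without mVEGF-C 2 the difference was -4.31 and was called by limma (adjusted p = 0.00245). Kat2a, at 0.73, was the highest of these 7 genes, and the Mastermind genes Maml2 and Maml3 stood at 0.53 and -0.53. Among 7 corepressors, Tle4, a Groucho-family gene, was at 399 and 506 against 2467 and 2364 (2.42, SE 1.06, limma adjusted p = 0.287), and Hdac2 was the lowest (-1.33). The DNA-binding partner Rbpj and Maml1 were not analysed here.

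Notch3 and Heyl are abundant in mural cells, so the markers of those cells were set beside them. Mural cells lack CD31, so the sort for CD31 and podoplanin should leave them out. Whether the sort did so was not tested, and the pericyte marker Rgs5 ranked 411 by mean normalised count. Of 34 mural markers other than these 2 genes, 9 were tested and none was called by limma, against 2.14% of all genes. At an unadjusted p under 0.05 there was 1, Tbx18, which was higher, against 11.8% of all genes. edgeR called none, and DESeq2 called Tbx18 higher, as it did 289 of all 9063 genes. Of the 9 markers, 4 lay above 0 and 5 below, with a median of -0.49. The pericyte markers were led by Rgs5, at 13040.3 and 7792 normalised counts in eGFP and 7874 and 5955 in mVEGF-C libraries (-0.56, SE 0.59, limma adjusted p = 0.830). Abcc9 was the 1 marker lower without overlap (19.8% of all genes were), at 10153 and 7325 against 5352 and 3139 (-1.07, SE 0.67, limma adjusted p = 0.578). Its channel partner Kcnj8 was at 1897 and 4717 against 816 and 2009.6 (-1.22), and the receptor Pdgfrb, which fibroblasts also express, at 2907 and 680 against 3532 and 2064 (0.94). Tbx18 was at 97.6 and 103 against 405 and 1402 (2.90, SE 1.23, limma adjusted p = 0.256). No tested mural marker was at 0 in any library. Of the 9114 genes, 9066 to 9111 were above 0 in each library, so nothing is read from this. The defining markers Acta2, Tagln, Myh11, Cspg4 and Des were not analysed here.

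**Figure D4:**
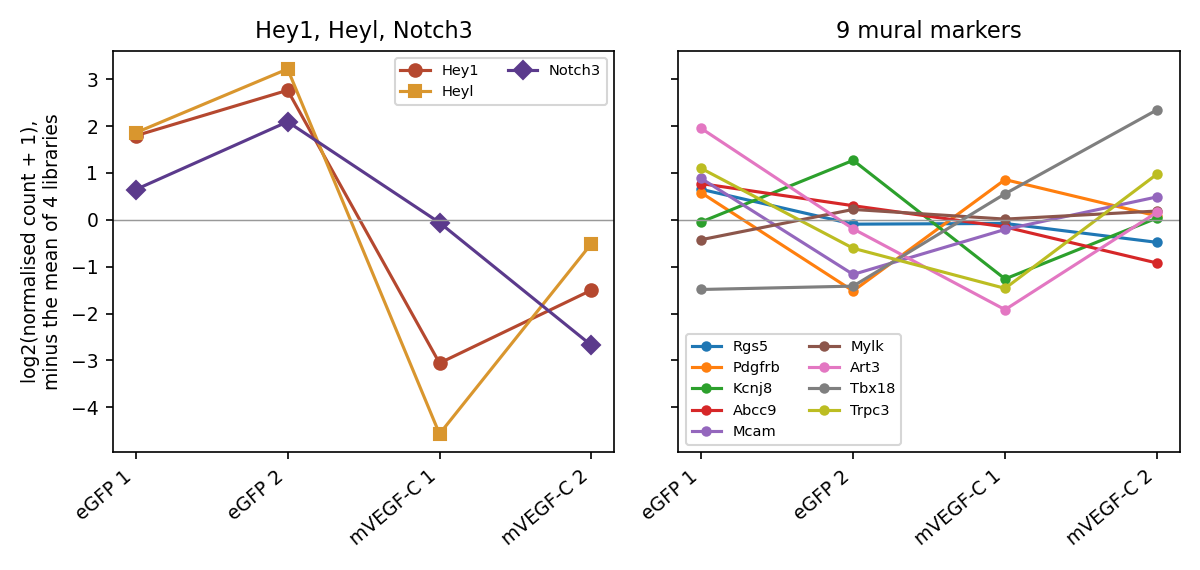
Log2(normalised count + 1) in each library minus the gene's mean over the 4 libraries, for Hey1, Heyl and Notch3 (left) and for the 9 mural markers tested (right), on the same axis. The 3 genes are high in both eGFP libraries and low in at least 1 mVEGF-C library, while the mural markers spread on both sides of 0 in every library.

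The summed level of the 9 mural markers was 34006 to 39669 normalised counts in the eGFP libraries and 29466 to 29471 in the mVEGF-C libraries. Mylk, Rgs5 and Abcc9 made up 71.8% to 81.3% of it. The sum was 1.25 times as high in eGFP by group mean (exact two-sided permutation test over the 4 libraries, p = 0.33, the smallest possible with 2 against 2). Per 1000 counts of these markers, Hey1 was at 4.58 and 10.5 in eGFP and 0.181 and 0.599 in mVEGF-C libraries, and Heyl at 4.45 and 13.4 against 0.0363 and 1.13. Notch3 was at 20.1 and 64.1 against 16.6 and 2.68. Relative to the mural sum, the lowest eGFP value was thus 7.65 times the highest mVEGF-C value for Hey1, 3.92 times for Heyl and 1.21 times for Notch3. The log2 difference of the ratio (with no pseudocount) was -4.40 for Hey1, against -4.71 unscaled, -5.25 against -5.57 for Heyl, and -2.43 against -2.75 for Notch3. Dividing by the sum took its own log2 difference (-0.32) from that of each gene alike. The ratios are therefore a description, and whether mural cells carried these genes was not tested. No mural marker tested took the library order of Hey1 and Heyl (6.87% of all genes did) or that of Notch3 (5.20%). With 9 markers and shares this small, nothing is read from this. The marker nearest to the mean profile of Hey1, Heyl and Notch3 was Kcnj8, which ranked 896 of 9060 genes.

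**Figure D5:**
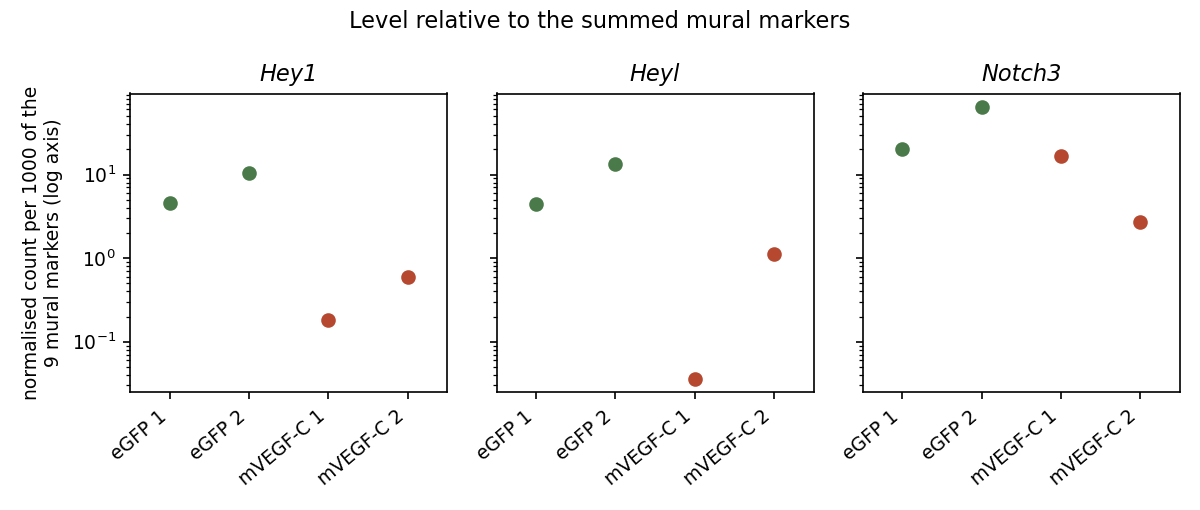
Normalised counts of Hey1, Heyl and Notch3 per 1000 normalised counts of the 9 mural markers, in each library on a log axis, green for eGFP and red for mVEGF-C. The groups stay apart for each gene, by 7.65-fold for Hey1 and 3.92-fold for Heyl, but only by 1.21-fold for Notch3.

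Hey1 also marks arterial endothelium, and 4 of 15 other arterial markers were tested, with none called by limma. Over all genes the share called was 2.14%, for this list and those that follow. Of the 4, Efnb2, Dll4 and Alpl (0.88) lay above 0 and Gja5 below. Gja5 was lower without overlap and Dll4 higher, as were 19.8% and 19.4% of all genes. Gja5, an arterial gap junction gene, was at 32.2 and 70.6 in eGFP and 30.98 and 6.50 in mVEGF-C libraries, while Efnb2, also an arterial gene and Notch target, was at 169 and 1042 against 1615 and 843. The arterial sum ranged from 4087 to 7554 in eGFP and 5832 to 13803 in mVEGF-C libraries. Of 11 capillary and venous markers none was called by limma, with sums of 20899 to 26542 against 21303 to 21945. Of 13 lymphatic markers none was called either, with sums of 537495 to 608754 against 581915 to 720889. Of these 13, 10 lay above 0 and 3 below (median 0.31), and 6 were higher without overlap and 0 lower (19.4% and 19.8% of all genes). The 6 were Lyve1, Reln, Nrp2, Itga9, Fgl2 and Maf. At an unadjusted p under 0.05 there were 2, Nrp2 (0.54) and Itga9 (1.29), both higher, against 11.8% of all genes. edgeR and DESeq2 called none of the 13. Of all 9063 genes edgeR called 67 higher and 79 lower, and DESeq2 289 and 329. Of 9 fibroblast markers limma called 2 higher, Fmod and Igfbp5, against 0.828% of all genes, and the sums of the 9 were 88836 to 218893 in eGFP against 190504 to 225881 in mVEGF-C libraries. The groups of Igfbp5 overlapped, with 140594 and 51757 normalised counts in eGFP 1 and 2 against 132701 and 129644 in mVEGF-C 1 and 2. On whole reads edgeR called Fmod alone (adjusted p = 0.0257, against 0.326 for Igfbp5) and DESeq2 called neither (0.147 and 0.885). Without the variance trend limma called neither (adjusted p = 0.326 for Fmod and 0.908 for Igfbp5), and the call of Igfbp5 was lost with the replicate number as a block (0.0733) and with libraries rescaled to 1 total (0.0621). Both calls were also lost in limma without eGFP 2 (log2 differences of 1.47 for Fmod and -0.10 for Igfbp5, adjusted p = 0.841 and 0.999), without mVEGF-C 1 (0.124 and 0.242) and without mVEGF-C 2 (0.0639 and 0.169). Sums were 29320 to 34026 against 24165 to 29556 for 4 leukocyte markers, 1308 to 1366 against 998 to 3092 for 5 neural and glial markers, and 901 to 2534 against 238 to 1140.0 for 2 haemoglobin genes, with none called. The sort should leave out fibroblasts, which lack CD31, and leukocytes, which carry CD45. Whether the sort did so was not tested. The fibroblast markers Col1a1, Col1a2 and Dcn had means of 12698, 14215 and 15878 normalised counts over the 4 libraries. Which of these cell types carried Hey1, Heyl or Notch3 was not tested, since the libraries are of bulk RNA.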

How the data were processed

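The authors deposited 1 table of 9114 genes in 4 libraries. Its signal values were made by the authors by dividing read counts by a size factor per library, as read from the deposited values. The submitters' processing notes name FastQC, Trimmomatic, Salmon and DESeq2 on mm10, with no versions. Every value was a whole multiple of its library's smallest value above 0 (100% within 0.001), so reads were recovered by division. Of the rows named by Ensembl identifiers, 1098 were given a symbol and 48 kept the name in the table. RNA had been amplified linearly, per the labels' protocols. The labels do not say whether the pools were processed independently beyond being separate samples.

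mVEGF-C was compared with eGFP in R 4.3.3 with limma 3.58.1 (trended eBayes, 2 residual degrees of freedom) on log2(normalised count + 1), which understates changes of low genes, for genes with a mean of at least 10, with Benjamini-Hochberg adjusted p under 0.05 as the call. In the main fit a gene's own replicates got no weight. The SEs, intervals and p-values of that fit used the spread expected at a gene's expression level across the table. A gene could thus be called although its own replicates lay far apart. Because the table was limited by replicate spread, p-values are too small. edgeR 4.0.16 and DESeq2 1.42.0 on the recovered reads were alternatives. The code was tested on simulated data. The genes and lists were chosen with earlier results of these data known. Named were the 3 genes, pathway genes with a row, defining, called and most abundant markers, and the genes nearest in profile. One pathway gene of the lists is not reported here.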

Additional observations from a re-analysis of the deposited data

How the results depend on the processing

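Over 13 alternatives the log2 differences of Hey1, Heyl and Notch3 lay between -5.33 and -3.78 for Hey1, -7.10 and -3.04 for Heyl, and -4.05 and -1.43 for Notch3, with the ends of each range set by leaving out a mVEGF-C library. Because the genes were chosen as lower in mVEGF-C and their groups did not overlap, the sign of these values is no sign of stability. The summed mural level stayed lower in mVEGF-C in the 5 alternatives that could be applied to it, with log2 differences of -0.43 to -0.21. Over the whole table limma called 75 higher and 119 lower; without the variance trend it called 15 and 26, edgeR called 67 and 79 and DESeq2 289 and 329. Leaving out 1 library moved these counts to 5 to 104 higher and 0 to 188 lower, lowest without eGFP 2 and highest without mVEGF-C 2; with the lone library of a group assumed to vary like the others, the cause was not tested. Of the other Notch genes, 0 were called in the main limma fit, DESeq2 called 2 higher and 1 lower, and leaving out 1 library gave 0 to 1 lower, the 1 being Crebbp without mVEGF-C 2. Of the mural markers DESeq2 called 1 higher. The replicate numbers did not pair the libraries (correlation of the number 1 libraries' deviations from their group means across genes, 0.00013); with the replicate number as a block, limma called 74 higher and 129 lower. Values of 1 to 36 reads limit Hey1 and Heyl in the mVEGF-C libraries.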

Other observations

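Of 11 markers of capillary and venous endothelium tested, 5 had log2 differences above 0 and 6 below (median -0.05), and 4 were lower without overlap and 1 higher, against 19.8% and 19.4% of all genes. The higher one was Lcn2 (1.15), while Slco1a4 (0.61) and Sele (0.05) overlapped between the groups. The following genes were chosen after their values were seen. Selp, an adhesion receptor of venous endothelium, and Vcam1, another leukocyte adhesion molecule, took the library order of Hey1 and Heyl. Selp was at 3122 and 6120 normalised counts in eGFP 1 and 2 and at 144 and 1969 in mVEGF-C 1 and 2, and ranked 370 of 9060 genes by nearness to the mean profile of Hey1, Heyl and Notch3. Vcam1 was at 2420 and 4184 against 953 and 1402, and ranked 690. Spock2 took the order of Notch3, at 1691 and 1995 against 615 and 58.5. None of the 3 was called by limma (adjusted p = 0.0753 for Selp, 0.610 for Vcam1 and 0.121 for Spock2). Of 4 leukocyte markers, Itgam was lower without overlap, at 698 and 310.0 against 76.9 and 123 (limma, adjusted p = 0.501), while Mrc1 (-0.22), Cd3d (-0.45) and Cx3cr1 (0.44) overlapped between the groups.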
